A study of Homo sapiens with 12 samples.

Results

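The interaction of genotype and inducer in T24 cells is the subject here: the change that 5-Ad-IAA brought in cells of the NS1 genotype minus the change it brought in WT cells, gene by gene on the log2 scale. It uses all 12 of the 12 RNA-seq libraries of the study, in 4 groups of 3: untreated WT, WT with 5-Ad-IAA, untreated NS1, and NS1 with 5-Ad-IAA. Its members were taken from the labels alone, and no measured value chose them. T24 is a long-established line from a human bladder carcinoma and carries an activated HRAS allele. The groups share this parent line, and each line has its own untreated control. Whether the NS1 line is 1 clone, whether the WT line carries any part of the degradation system, and whether replicates were separate cultures are not stated in the sources used here. The p-values therefore measure the spread of the treated-minus-untreated differences between the replicates of each line, which may be technical.

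The study concerns AlissAID, in which a small binding protein brings an untagged target to an auxin-dependent ubiquitin ligase, so that the target protein is degraded when an auxin is added. 5-Ad-IAA is such an auxin derivative. A synthetic binder of HRAS goes by the name NS1, but the labels do not spell the term out, and target protein levels were not analysed here. As background, active RAS switches on the RAF, MEK and ERK kinases. ERK raises transcripts of its own inhibitors (DUSP and SPRY genes) and of ETS and AP-1 factors, supports entry into the cell cycle through cyclin D, RB and E2F, and in epithelial cancer lines can hold down interferon-stimulated and differentiation genes. The question that the interaction addresses is which responses to the compound differ between the NS1 line and the WT line given the same compound.

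Libraries held 10593934 to 20266996 counts. Libraries of replicate 1 stood apart from replicates 2 and 3 in 3 groups, where the chi-square per degree of freedom was 17.6 to 26.3 with replicate 1 and 3.03 to 5.46 between the other two. In untreated WT cells it was 30.6 and 25.3 with replicate 1 and 18.2 between replicates 2 and 3, so those differed as well. The labels name no batch. MGP, for example, reached 4.47 normalised CPM (counts scaled to library size) in treated NS1 replicate 1 but 72.4 and 83.7 CPM in replicates 2 and 3. Libraries with the same replicate number deviated together within a line, though libraries of different numbers were not compared in this way. Each treated library was set against the untreated library of its own line and number. Such a treated-minus-untreated difference is called a pair difference here. A gene was called at an adjusted p under 0.05 in edgeR's quasi-likelihood test over 17775 genes. HRAS transcripts, which check no protein degradation, were at 178 to 194 CPM in untreated and 145 to 166 CPM in treated NS1 libraries.

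Of the 17775 genes, 2495 (14%) were called in the interaction, 1240 higher (6.98%) and 1255 lower (7.06%) in the NS1 response than in the WT response. A difference of at least 2-fold was called for 340 genes higher (1.91%) and 126 lower (0.709%). Scaled by library totals alone, without TMM, the split was 1009 higher to 1617 lower, and the median of all genes shifted to -0.05. The treated NS1 cells differed from their untreated partners in 4596 genes (25.9%), of which 2318 rose (13%) and 2278 fell (12.8%). In WT cells 0 genes were called (0%), with 476 at an unadjusted p under 0.05. DESeq2 and limma voom also called 0 genes in WT, with 68 and 486 at an unadjusted p under 0.05. Without replicate 3 of WT the WT count was 467.

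Genes called higher had a median interaction of 0.68 log2, made of a median of 0.60 in NS1 and -0.07 in WT. Genes called lower had a median interaction of -0.57, made of -0.54 in NS1 and 0.04 in WT. The NS1 difference was the larger one, in size, in 13238 of all 17775 genes tested. Among the called genes it was the larger in 1217 of the 1240 and in 1245 of the 1255. The remaining 33 called genes had the larger difference in WT, and COL4A4 was among them. Over all genes tested the median size of the difference was 0.197 log2 in NS1 and 0.0745 in WT. The 3 NS1 pair differences did not overlap the 3 WT pair differences in 2657 genes with NS1 higher (14.9%) and in 2810 genes with NS1 lower (15.8%). The count of calls depended on the pairing: without the replicate block 4 genes were called, with 2196 at an unadjusted p under 0.05. Without replicate 1 of both lines 417 were called, in a fit that keeps the pairing and holds fewer libraries. Leaving out a pair of libraries, untreated and treated, also moved the calls in the 22 gene lists described below. The number of members called moved by over 1.5 times in 9, 4 and 6 lists without NS1 replicates 1, 2 and 3. Without WT replicates 1, 2 and 3 it did so in 9, 1 and 3 lists. Leaving out replicate 1 of both lines did so in 20, and each list's count in that fit is given beside its own. List medians in that fit were 0.322 beside 0.387 for lysosome genes and -0.359 beside -0.433 for ribosome biogenesis. They were -0.291 beside -0.424 for EGF family ligands and -0.0347 beside 0.052 for cholesterol genes. The blocking moved all 22. With one block per replicate number, 19 mitosis, 14 interferon and 12 replication genes were called, and 0 to 7 in each other list. With no block, 1 mitosis gene and 1 BCL2 family gene were called and 0 in the other lists. Of 116 genes and markers taken up by the naming rule, 49 share exon sequence with another tested gene, and such reads cannot be told apart.

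**Figure D1:**
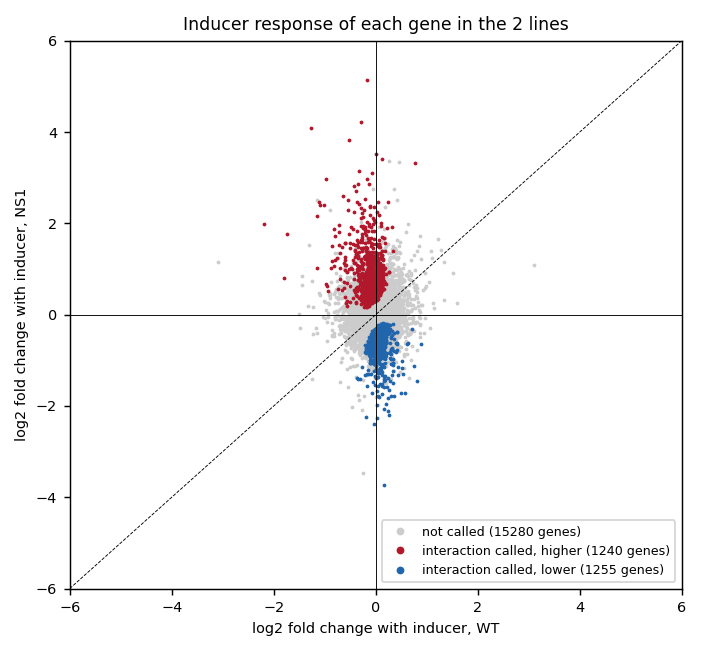
Log2 fold change with 5-Ad-IAA in WT (x axis) against that in NS1 (y axis) for each of the 17775 genes tested. Genes called in the interaction (1240 higher, 1255 lower) are coloured; they spread along the NS1 axis, while their WT medians are -0.07 and 0.04.

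The genes with the highest interactions were transcripts at low levels in NS1 cells before the inducer. A ranking by fold change favours such transcripts, and the mean of at least 1 CPM includes the treated NS1 libraries. The low level is therefore not a result of its own. MGP encodes matrix Gla protein, an inhibitor of calcification. It was at 0.185, 2.54 and 1.63 CPM in untreated NS1 replicates 1 to 3 and at 4.47, 72.4 and 83.7 CPM in their treated partners. All 6 WT libraries lay between 0.193 and 0.525 CPM. The interaction was 5.30 log2 (SE 0.57, adjusted p 5.3e-05). MGP (ENSG00000111341.9, chromosome 12, 14881181 to 14885926) shares exon sequence with C12orf60 on the opposite strand, and reads of the genes cannot be told apart.

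IDO1 (ENSG00000131203.13, chromosome 8) encodes the enzyme that opens tryptophan breakdown to kynurenine. It rose in NS1 from 0.926, 0.509 and 0.769 CPM to 12.5, 8.64 and 10.3 CPM. In WT it was at 6.89, 1.58 and 0.87 CPM untreated and 4.08, 1.34 and 1.17 CPM treated. Each treated NS1 library exceeded every other library, and the interaction was 4.35 (SE 0.31, adjusted p 3.59e-06). BMF (ENSG00000104081.14, chromosome 15), a BH3-only activator of apoptosis, rose in NS1 from 2.9, 2.69 and 2.31 CPM to 27.1, 13.4 and 17.1 CPM. All 6 WT libraries held 0.807 to 1.56 CPM of it, and the interaction was 3.21 (SE 0.36, adjusted p 7.67e-05). IDO1, BMF and MGP were called in all 9 fits that left out a pair of libraries of 1 line or a replicate number of both lines.

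ELF3 (ENSG00000163435.16, chromosome 1), an epithelial ETS factor of differentiating urothelium, rose from 0.247, 2.62 and 1.83 CPM to 3.48, 17.6 and 19.5 CPM in NS1, with WT libraries at 1.08 to 3.65 CPM. Its interaction was 3.19 (SE 0.32, adjusted p 2.66e-05). Its exons overlap ELF3-AS1. DIO2, which activates thyroid hormone, went from 1.23, 6.18 and 4.33 CPM to 17.1, 49.7 and 57.0 CPM in NS1 and stayed between 0.18 and 1.52 CPM in WT (interaction 3.29, SE 0.42, adjusted p 0.000193). The replicate 1 libraries of NS1 were lowest for MGP, ELF3 and DIO2 both before and after the inducer, whereas their pair differences were 3.83, 3.23 and 3.65 log2.

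The other genes among the 10 highest were PECAM1 (3.49), TGFB2-AS1 (3.32), SLC4A4 (3.25), ANK1 (3.24) and COL4A4 (4.16). PECAM1 is an adhesion molecule of endothelium and blood cells, SLC4A4 a sodium bicarbonate cotransporter, ANK1 a membrane skeleton adaptor and COL4A4 a basement membrane collagen. COL4A4 was at most at 3 counts in each treated WT library, so its fitted value depends on the prior count. It ranged from 2.0 to 6.3 over the 9 leave-out fits and was called in 4 of them. FILIP1L, which has been tied to reduced cell motility, had an interaction of 1.84 (SE 0.22, adjusted p 9.76e-05).

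The lowest interaction was that of ESM1 (ENSG00000164283.13, chromosome 5), or endocan, a proteoglycan secreted by endothelium and some tumours. Untreated NS1 libraries held 10.6, 11.0 and 10.9 CPM and treated ones 0.52, 1.13 and 0.913 CPM. WT libraries held 14.3, 96.5 and 75.4 CPM without and 17.2, 98.6 and 87.4 CPM with the compound. Replicate 1 of WT was thus several fold below the other WT libraries, and the NS1 groups did not overlap. The interaction was -3.89 (SE 0.21, adjusted p 3.52e-07), the lowest adjusted p among the 20 genes with the most extreme values.

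CSF3 (ENSG00000108342.12, chromosome 17, 40015361 to 40017813), the granulocyte colony-stimulating factor, fell in NS1 from 0.926, 4.8 and 4.14 CPM to 0.26, 0.698 and 0.83 CPM. WT libraries held 4.45, 67.2 and 46.9 CPM untreated and 3.8, 69.9 and 45.6 CPM treated, and the interaction was -2.37 (SE 0.27, adjusted p 7.79e-05). IL13RA2, a decoy receptor for IL-13, fell in NS1 from 24.9, 3.05 and 3.85 CPM to 6.34, 0.698 and 0.581 CPM, while WT held 7.06 to 10.2 CPM throughout (interaction -2.23, SE 0.21, adjusted p 2.11e-05). FABP4, a fatty acid carrier that PPARG induces, fell in NS1 from 13.1, 11.0 and 10.3 CPM to 3.22, 2.97 and 3.65 CPM beside 4.43 to 7.12 CPM in WT (interaction -2.06, SE 0.23, adjusted p 7.14e-05). PPARG itself was called higher, at 0.42.

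The same end of the ranking held the collagenase MMP1 (-2.0), the stromelysin MMP3 (-2.07), the hemidesmosome collagen COL17A1 (-2.05), the anti-apoptotic BCL2A1 (-2.46), ACP7 (-2.35) and TMEM108-AS1 (-2.30). MMP1 and MMP3 overlap WTAPP1, and WT replicate 1 held 0 and 0.0475 CPM of MMP3 against 18.3 to 25.7 CPM in the other WT libraries. COL17A1 and BCL2A1 were under 1 CPM in all treated NS1 libraries.

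**Figure D2:**
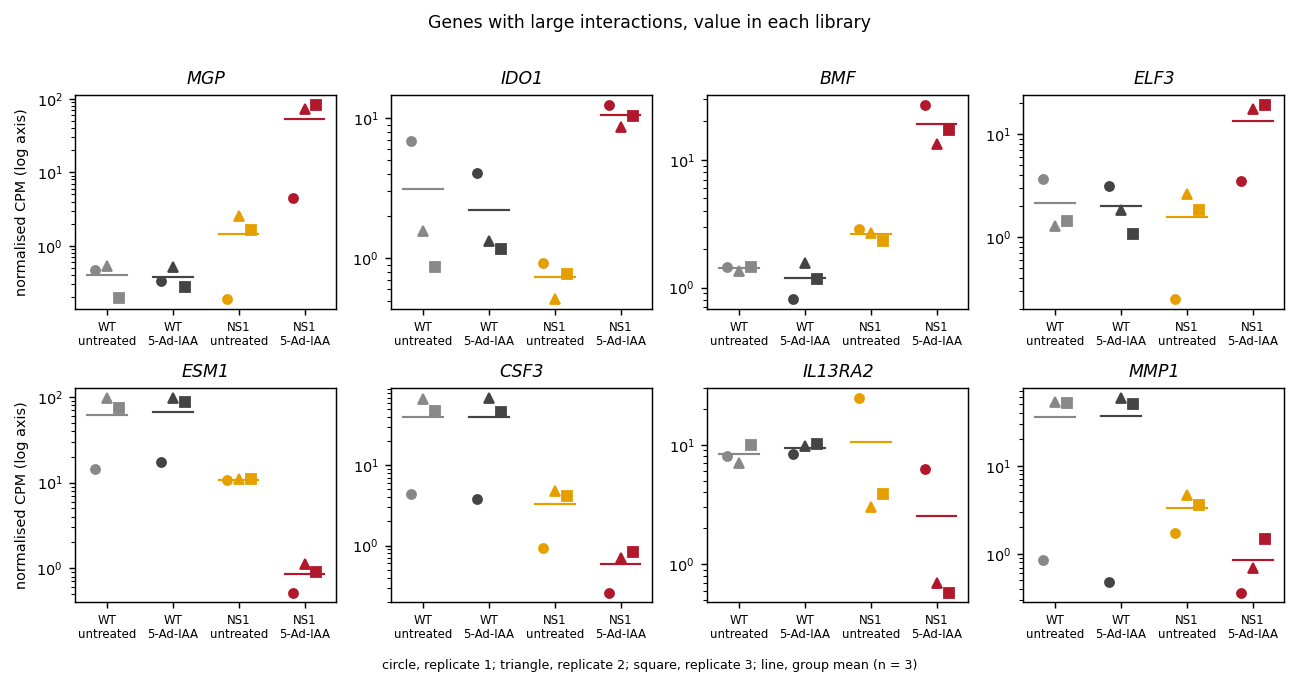
Normalised CPM (log axis) of 4 genes with high and 4 with low interactions in each of the 12 libraries; symbols mark the replicate number and lines the group mean (n = 3). In NS1 the treated libraries of IDO1 and BMF (8.64 to 27.1 CPM) lie above all untreated ones, those of ESM1 (0.52 to 1.13 CPM) below, and the WT groups overlap.

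Transcripts that report ERK activity were lower in the NS1 response. Of 9 feedback inhibitors tested, 5 were called lower and 0 higher (55.6% called, against 14% of all genes), with a median interaction of -0.54 beside 0.00 over all genes. SPRY4 (ENSG00000187678.9, chromosome 5, 142310427 to 142326455), an inhibitor upstream of RAF, was at 60.2, 64.8 and 67.2 CPM in untreated and 28.5, 33.3 and 26.8 CPM in treated NS1 libraries. WT libraries lay at 28.9 to 56.1 CPM, and the interaction was -1.11 (SE 0.15, adjusted p 0.000273). DUSP6, the cytoplasmic ERK phosphatase, fell in NS1 from 56.5, 65.6 and 69.4 CPM to 36.1, 35.3 and 36.4 CPM, below all WT libraries (55.6 to 90.6 CPM). Its interaction was -0.91 (SE 0.12, adjusted p 0.000176), and the nuclear phosphatase DUSP4 (-0.76) and SPRY2 (-0.75) were also called. Without replicate 1 of both lines 3 of the 9 were called.

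Among 15 ETS, AP-1 and immediate-early transcripts 7 were called lower and 0 higher, with a median of -0.51; without replicate 1 of both lines 5 were called. ETV4, an ETS factor, fell in NS1 from 13.3, 13.2 and 14.6 CPM to 5.25, 7.68 and 5.9 CPM. WT libraries held 22.8 to 37.3 CPM, and the interaction was -1.31 (SE 0.15, adjusted p 9.26e-05). FOSL1 (ENSG00000175592.8, chromosome 11, 65892049 to 65900573), an AP-1 subunit whose protein and transcript follow ERK activity, fell from 182, 184 and 178 CPM to 101, 95.1 and 89.7 CPM (interaction -0.93, SE 0.10, adjusted p 6.13e-05). PHLDA1 (-0.83) and IER2 (-0.72) were called too, whereas FOS was at 0.41 (adjusted p 0.547) and CCND1, cyclin D1, at -0.16 (adjusted p 0.415).

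Ligands that were called all went lower, whereas called receptors and adaptors went both ways. Of 6 EGF family ligands 3 were called, all lower: amphiregulin AREG (-1.39), HBEGF (-0.59) and TGFA (-0.45). Without replicate 1 of both lines 0 were called. Of 18 receptor tyrosine kinases and adaptors 7 were called higher and 2 lower, the latter IRS1 (-0.40) and EPHA2 (-0.39). The median was 0.24, and without replicate 1 the count was 3. PDGFRB was at 2.31 ± 1.46 CPM (SD, n = 3) in untreated and 11.8 ± 6.77 CPM in treated NS1 cells, and at 2.07 ± 1.42 and 1.94 ± 0.878 CPM in WT (interaction 2.48, SE 0.29, adjusted p 8.38e-05). ERBB3 (2.41), EPHA4 (2.05) and the insulin receptor substrate IRS2 (1.21) were also higher, while EGFR (0.16, adjusted p 0.641) and MET (-0.07, adjusted p 0.767) were not called. ERBB3 was low, at 0.607 ± 0.0985 CPM (SD, n = 3) in untreated and 2.46 ± 1.57 CPM in treated NS1 cells. It was called in 7 of the 9 leave-out fits. Its exons overlap a more abundant gene on the same strand, and reads of the genes cannot be told apart.

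Of the RAS to ERK transcripts described here, 1 was called in the interaction. MAPK3, which encodes ERK1, was called higher at 0.37 (SE 0.10, adjusted p 0.0241), with NS1 pair differences of 0.34, 0.31 and 0.40 and WT ones of 0.02, 0.07 and -0.13. It was called in 3 of the 9 leave-out fits. HRAS (-0.26, SE 0.12, adjusted p 0.179), BRAF (0.38, SE 0.19, adjusted p 0.22), MAP2K1 (-0.27, adjusted p 0.104), MAP2K2 (0.27, adjusted p 0.175) and NRAS (0.08, adjusted p 0.634) were not called. Over the 9 leave-out fits HRAS ran from -0.41 to -0.13 and BRAF from 0.09 to 0.59. Each was called in 2 of them, without WT replicate 3 and without replicate 3 of both lines. The inducer effect in NS1 alone was called for HRAS (-0.25, adjusted p 0.0481), MAP2K1 (-0.34, adjusted p 0.00295) and MAP2K2 (0.27, adjusted p 0.0337). It was also called for MAPK3 (0.35, adjusted p 0.00201), but not for BRAF (0.23, adjusted p 0.246) or NRAS (-0.03, adjusted p 0.777).

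In the BCL2 family 2 of 14 tested members were called higher, both BH3-only activators, and 4 were called lower. The higher ones were BMF, described above, and BCL2L11, which encodes BIM. BCL2L11 was at 9.69, 7.92 and 8.46 CPM in untreated and 14.8, 11.9 and 13.1 CPM in treated NS1 libraries, against 7.83 to 10.6 CPM in WT (interaction 0.74, SE 0.15, adjusted p 0.0041). Its exons overlap MIR4435-2HG. The lower ones were the survival genes BCL2A1 and MCL1 (-0.51) and, named after their values were seen, BCL2 (-1.08) and the BH3-only PMAIP1 (-0.47). The members thus did not share a direction, and without replicate 1 of both lines only 1 of them was called.

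Among the 22 lists, those of mitosis and DNA replication had the highest shares called, 100% and 97.1%. Of 32 mitosis and kinetochore genes tested 32 were called lower, with a median of -0.69, and of 34 DNA replication genes 33 were called lower, with a median of -0.71. The list medians of the NS1 pair differences were -0.67, -0.66 and -0.78 for mitosis and -0.84, -0.59 and -0.61 for replication, and those of WT lay between -0.05 and 0.07. ZWINT (ENSG00000122952.17, chromosome 10), a kinetochore subunit, was at 95.7, 89.0 and 89.4 CPM in untreated and 48.5, 51.1 and 46.3 CPM in treated NS1 libraries. WT libraries held 71.9 to 80.4 CPM, and the interaction was -0.87 (SE 0.10, adjusted p 8.71e-05).

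PLK1, the kinase of mitotic entry and exit, fell in NS1 from 130, 141 and 148 CPM to 82, 77 and 73.7 CPM (interaction -0.86, SE 0.11, adjusted p 0.00014), and AURKB, of the chromosomal passenger complex, and NDC80, of the outer kinetochore, were at -0.87 and -0.81. MCM7, a subunit of the replicative helicase, fell from 127, 132 and 135 CPM to 69.8, 83.5 and 89.0 CPM, with WT at 211 to 280 CPM (interaction -0.79, SE 0.10, adjusted p 0.000193). RRM1 (-0.73) and RRM2 (-0.74), of ribonucleotide reductase, were lower as well. Without replicate 1 of both lines 12 mitosis and 6 replication genes were called, and the list medians were -0.72 and -0.61. In these bulk libraries, fewer cells in a cell cycle phase and less RNA per cell cannot be told apart.

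Of 24 G1/S regulators 11 were called lower and 2 higher, with a median of -0.45; without replicate 1 of both lines 3 were called. CCNA2, cyclin A2 (-0.80), the repressor E2F7 (-0.82) and MYBL2 (-0.77) were lower. CDKN1C (ENSG00000129757.13, chromosome 11, 2883213 to 2885773), a CDK inhibitor, was higher at 1.97 (SE 0.26, adjusted p 0.000237), rising in NS1 from 22.2, 6.4 and 4.71 CPM to 52.9, 17.2 and 19.1 CPM beside 1.61 to 3.19 CPM in WT. Of 20 homologous recombination and crosslink repair genes 13 were called lower and 0 higher, with a median of -0.70 and 2 calls without replicate 1. The helicase BLM (-1.06), FANCI (-0.77), RAD51AP1 (-0.77) and FANCA (-0.62) led them by adjusted p.

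Promoters of mitotic and replication genes are known to differ in sequence: the former often pair a CCAAT box, bound by NF-Y, with a CHR element (TTTGAA), the latter carry E2F sites (TTTCCCGC or TTTGGCGC). Below are the 250 bases up to the RefSeq start (GRCh38.p14, printed 5′ to 3′ on the gene's strand) for the called members with the lowest p that hold these motifs, with CCAAT and TTTGAA, or the E2F letters, in capitals on either strand.
ZWINT promoter, chr10:56361260-56361509, minus strand: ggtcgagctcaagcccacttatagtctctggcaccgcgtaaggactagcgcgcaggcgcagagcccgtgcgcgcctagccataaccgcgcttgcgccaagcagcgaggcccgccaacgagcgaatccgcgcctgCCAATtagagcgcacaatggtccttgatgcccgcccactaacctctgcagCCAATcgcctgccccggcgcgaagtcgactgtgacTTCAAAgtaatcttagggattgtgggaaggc
PLK1 promoter, chr16:23678639-23678888, plus strand: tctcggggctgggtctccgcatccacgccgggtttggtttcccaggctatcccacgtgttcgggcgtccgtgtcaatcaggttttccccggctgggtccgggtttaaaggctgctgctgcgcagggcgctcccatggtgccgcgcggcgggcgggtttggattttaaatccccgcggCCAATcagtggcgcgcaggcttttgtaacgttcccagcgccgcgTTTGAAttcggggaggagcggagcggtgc
MCM7 promoter, chr7:100101398-100101647, minus strand: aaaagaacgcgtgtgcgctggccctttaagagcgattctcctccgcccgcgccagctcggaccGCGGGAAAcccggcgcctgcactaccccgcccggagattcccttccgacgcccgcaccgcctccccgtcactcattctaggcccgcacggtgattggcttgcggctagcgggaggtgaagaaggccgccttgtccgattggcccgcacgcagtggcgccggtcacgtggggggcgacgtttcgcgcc
TYMS promoter, chr18:657403-657652, plus strand: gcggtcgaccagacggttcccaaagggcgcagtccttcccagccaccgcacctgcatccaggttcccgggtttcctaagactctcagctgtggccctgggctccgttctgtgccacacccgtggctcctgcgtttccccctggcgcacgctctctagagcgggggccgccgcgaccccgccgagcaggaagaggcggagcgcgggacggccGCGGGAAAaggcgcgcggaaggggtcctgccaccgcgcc

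Both mitotic promoters hold their motifs in the last 116 bases before the start. TYMS, thymidylate synthase, had an interaction of -0.64 (SE 0.10, adjusted p 0.000682), and its E2F letters begin 39 bases before the start. Windows of 250 bases before to 50 after the start were found for 11052 tested genes with a symbol match, 826 of them called higher and 882 called lower. On both strands TTTGAA was in 9.75% of all these windows, in 17.7% of those called lower, in 7.87% of those called higher and in 70.4% of 27 mitosis promoters, but in 3.33% of 30 replication promoters. CCAAT was in 36.7% of all windows, 44.8% of those called lower, 81.5% of mitosis promoters and 60.0% of replication promoters. Both motifs together were in 4.2% of all windows, 55.6% of mitosis and 3.33% of replication promoters. E2F letters were in 3.69% of all windows, 7.6% of those called lower and 53.3% of replication promoters, against 3.7% of mitosis promoters. Outside the 4 cell cycle and repair lists, 809 promoters of genes called lower held TTTGAA in 16.6% and E2F letters in 5.81%. The lists are partial, so other cell cycle genes can be among these 809. A match is a description of the letters and shows no binding.

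Interferon-stimulated genes had the highest share called in the other direction (88.9%) among the 22 lists. Of 36 tested 32 were called higher and 0 lower, with a median of 0.83, and 19 were called without replicate 1 of both lines. The list medians of the pair differences were 0.64, 0.81 and 0.97 in NS1 and -0.17, -0.09 and -0.04 in WT. MX1 (ENSG00000157601.14, chromosome 21), a GTPase that blocks viral replication, was at 9.51 ± 7.43 CPM (SD, n = 3) in untreated and 50.2 ± 34.9 CPM in treated NS1 cells, and at 41.6 ± 4.33 and 33.8 ± 6.8 CPM in WT. The treated NS1 libraries varied widely in level, while the pair differences were 2.78, 1.84 and 2.9 in NS1 and -0.57, -0.32 and -0.06 in WT. The interaction was 2.74 (SE 0.22, adjusted p 6.68e-06).

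IFI27, a mitochondrial interferon-induced protein, rose in NS1 from 7.47, 51.5 and 52.1 CPM to 16.0, 123 and 157 CPM. WT libraries held 131 to 160 CPM, so that treated NS1 replicates 2 and 3 came near or into the WT range and replicate 1 did not. The interaction was 1.49 (SE 0.14, adjusted p 1.48e-05). The antiviral RSAD2 (2.07) and the 2′-5′ oligoadenylate synthetase OAS2 (1.92) were also among the lowest adjusted p. The 4 members that were not called were IFI44 (0.07), OAS3 (0.27), OASL (0.42) and IRF7 (0.30).

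Interferon-stimulated promoters are known for the ISRE, searched here on both strands as GAAA, then NN, then GAAA. It was in 57.1% of 28 interferon promoters, in 2.79% of all windows, in 7.26% of those called higher and in 2.83% of those called lower. Outside the interferon and MHC class I lists, which are partial, 5.29% of 794 promoters of genes called higher held it. The 250 bases up to the start are shown for the called members with the lowest p that hold it, with the ISRE letters in capitals.
IFI27 promoter, chr14:94110486-94110735, plus strand: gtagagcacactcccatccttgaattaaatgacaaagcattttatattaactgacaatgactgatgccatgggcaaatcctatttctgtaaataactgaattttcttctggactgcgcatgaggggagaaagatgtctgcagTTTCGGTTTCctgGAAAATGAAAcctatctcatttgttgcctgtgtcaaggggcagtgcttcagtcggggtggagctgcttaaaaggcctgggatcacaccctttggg
IFI44L promoter, chr1:78620198-78620447, plus strand: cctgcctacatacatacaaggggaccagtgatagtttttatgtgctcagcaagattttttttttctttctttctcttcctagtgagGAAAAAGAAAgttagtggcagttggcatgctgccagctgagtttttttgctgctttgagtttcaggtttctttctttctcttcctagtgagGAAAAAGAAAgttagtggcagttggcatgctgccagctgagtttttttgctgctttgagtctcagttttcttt

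IFI27 has ISRE letters beginning 108 and 95 bases before the start and IFI44L 164 and 73 bases before it. IFI44L had an interaction of 2.68 (SE 0.26, adjusted p 2.13e-05). For comparison, AP-1 letters (TGANTCA) were in 4.61% of all windows, 5.57% of those called higher and 5.44% of those called lower.

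Of 15 MHC class I genes 8 were called higher and 0 lower, with a median of 0.39. The calls numbered 0 without replicate 1 of both lines, 2 to 4 without an NS1 pair of libraries and 3 without WT replicate 1. HLA-B was at 79.4 ± 11.1 CPM (SD, n = 3) in untreated and 115 ± 24.6 CPM in treated NS1 cells, and at 123 ± 5.58 and 117 ± 8.05 CPM in WT (interaction 0.60, SE 0.11, adjusted p 0.00206). The peptide transporter TAP1 (0.52), HLA-E (0.46) and HLA-C (0.43) were also called. HLA genes are near-identical copies, so reads can be split between them.

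Cytokines and proteases went both ways. Of 18 inflammatory genes tested 6 were called lower and 3 higher, and 4 without replicate 1 of both lines. IL1B fell in NS1 from 23.4, 39.1 and 43.8 CPM to 11.5, 15.4 and 13.9 CPM, and WT libraries held 57.6, 278 and 276 CPM untreated and 63.0, 323 and 304 CPM treated (interaction -1.5, SE 0.13, adjusted p 1.28e-05). The neutrophil chemokine CXCL8 (-1.37) and IL1A (-0.85) were lower along with CSF3. The higher ones, named after their values were seen, were CXCL10 (3.42, at means under 1 CPM in every group), IL6 (0.95) and NFKBIA (0.52). CXCL10 is itself an interferon-induced chemokine.

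Of 16 matrix protease and mesenchymal genes 5 were called lower and 3 higher, and 6 were called without replicate 1 of both lines. PLAUR, the urokinase receptor (-1.10), and PLAU, urokinase (-0.83), were lower with MMP1 and MMP3. The gelatinase MMP2 was higher, from 2.62 ± 1.08 CPM (SD, n = 3) to 11.7 ± 5.23 CPM in NS1 beside 4.76 ± 4.54 and 3.88 ± 2.57 CPM in WT (interaction 2.40, SE 0.26, adjusted p 5.53e-05). VIM (-0.12, adjusted p 0.667) and ZEB1 (-0.16, adjusted p 0.494) were not called. Of 15 hemidesmosome, laminin and integrin genes 5 were lower and 3 higher, 4 of them called without replicate 1. ITGA6 (-0.96) and LAMB3 (-0.53) were lower, and ITGB4, the partner of ITGA6 in hemidesmosomes, was higher at 1.04 (SE 0.16, adjusted p 0.000717).

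Calls among NRF2, aryl hydrocarbon receptor and lysosome genes were all in the higher direction. Of 16 NRF2 targets 8 were called higher and 0 lower, with a median of 0.44 and 3 calls without replicate 1 of both lines. HMOX1, heme oxygenase 1, rose in NS1 from 97.4, 87.4 and 76.0 CPM to 256, 136 and 162 CPM and was at 28.6 to 58.0 CPM in WT (interaction 1.17, SE 0.16, adjusted p 0.000237). The aldo-keto reductases AKR1C1 (1.73) and AKR1C3 (1.6), whose sequences are near copies, were called. The antioxidant response element (TGACNNNGC) was in 4 of 13 NRF2 target promoters (30.8%) and in 14.8% of all windows, 12.6% of those called higher and 15.9% of those called lower.

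Of 4 aryl hydrocarbon receptor targets tested 2 were called higher, ALDH3A1 (2.83) and NQO1 (0.62), and 0 without replicate 1 of both lines. Both are also listed among targets of NRF2 in general use, and CYP1A1, CYP1A2 and CYP1B1 were too low to be tested. Of 27 lysosome and autophagy genes 13 were called higher and 0 lower, with a median of 0.39, but 1 without replicate 1. The protease CTSD was at 682 ± 120 CPM (SD, n = 3) in untreated and 1400 ± 234 CPM in treated NS1 cells (interaction 1.10, SE 0.11, adjusted p 2.67e-05), and it overlaps a readthrough transcript. The autophagy genes SQSTM1 (0.79) and GABARAPL1 (0.95) were higher, as was CTSA (0.62).

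The lists of ribosome biogenesis, the ATF4 stress response and metabolism differed among themselves. Of 24 ribosome biogenesis genes 14 were called lower and 0 higher, with a median of -0.43, but 1 without replicate 1 of both lines. BOP1 (-0.71), DKC1 (-0.64), BYSL (-0.58) and GNL3 (-0.53) had the lowest adjusted p. Of 17 ATF4 targets 5 were lower and 1 higher, with 0 called without replicate 1. PSAT1 (-0.52), TRIB3 (-0.48) and SHMT2 (-0.43) were lower, and DDIT4, an inhibitor of mTORC1, was higher (0.62). Of 21 cholesterol genes 2 were called (LSS at 0.42 among them) and of 18 glycolysis genes 1 (HK2 at -0.59). Their 9.52% and 5.56% are below the 14% of all genes, and without replicate 1 each count was 0. The YAP-TEAD list holds targets and also the factors YAP1, WWTR1, TEAD1 and TEAD4. Of its 14 members 3 were called higher, all of them targets: AJUBA (0.73), ANKRD1 (0.64) and AMOTL2 (0.42, called in 3 of the 9 leave-out fits). The coactivator WWTR1 (-0.67) was the 1 called lower. Without replicate 1 of both lines 1 was called.

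**Figure D3:**
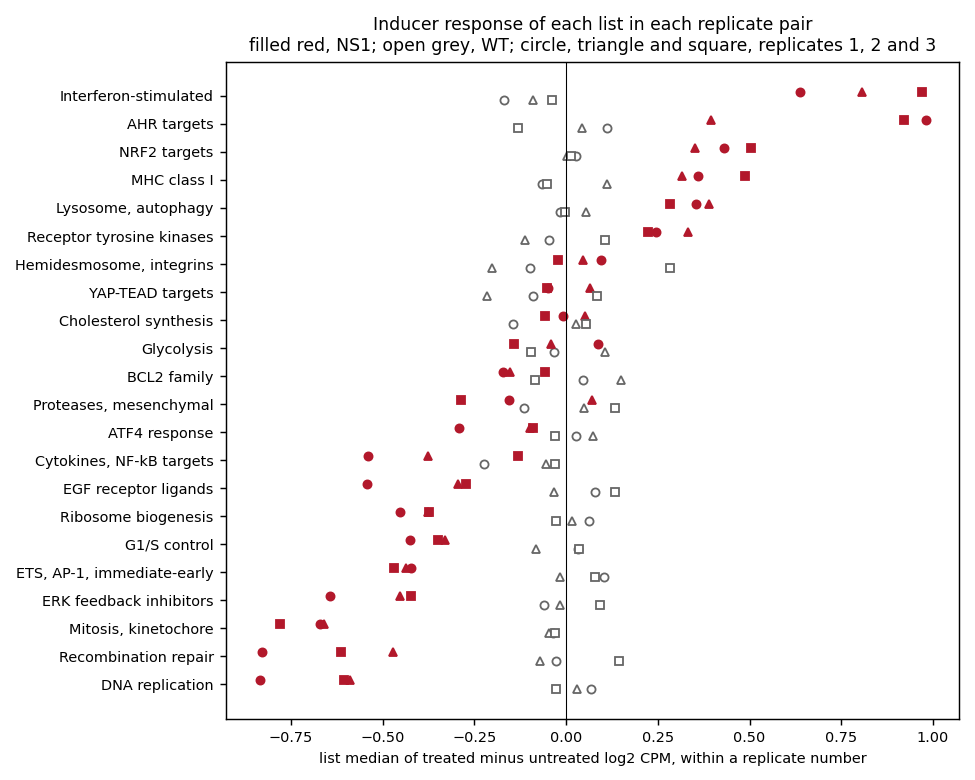
Median over each list of the treated-minus-untreated log2 CPM, for the 3 replicate pairs of NS1 (filled red) and of WT (open grey). The mitosis medians of NS1 lie between -0.78 and -0.66 and those of WT between -0.05 and -0.03.

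Urothelial markers were checked in all libraries. T24 libraries held KRT7, KRT8, KRT18, KRT19, GATA3, PPARG and FOXA1, whereas KRT5, TP63 and UPK3A had 0 counts throughout. Of 8 urothelial markers tested 6 were called higher and 0 lower, with a median of 0.50. GATA3 (ENSG00000107485.18, chromosome 10), a luminal urothelial factor, rose in NS1 from 34.7, 28.6 and 29.3 CPM to 105, 60.3 and 69.8 CPM, above every WT library (22.2 to 50.1 CPM), with an interaction of 1.46 (SE 0.13, adjusted p 1.41e-05). FOXA1 (0.57), KRT19 (0.53), KRT7 (0.48), PPARG (0.42) and KRT8 (0.39) were called, and UPK2 (0.53, adjusted p 0.373) was not. GATA3 was called in all 9 leave-out fits, KRT19 and KRT7 in 5, FOXA1 and PPARG in 4 and KRT8 in 2. The count of 6 fell to 1 without replicate 1 of both lines and without WT replicate 1, to 2 without NS1 replicate 1 or 2, and to 3 without NS1 replicate 3 or without replicate 2 of both lines. It was 1 with one block per replicate number and 0 with no block.

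Most markers of other cell types had few counts, with CD68, PDGFRB and COL1A1 as exceptions. The leukocyte markers PTPRC and CD3E had at most 1 count in any library. CD68, a lysosomal protein of macrophages that other cells also express, had 126 to 291 counts per library and an interaction of 0.14 (adjusted p 0.617). The summed 5 leukocyte markers were at 8.51 to 15.9 CPM in untreated and 10.9 to 15 CPM in treated NS1 libraries. The fibroblast markers DCN and LUM had 0 and at most 2 counts, while PDGFRB (10 to 209 counts) and COL1A1 (12 to 85 counts; interaction 1.34, adjusted p 0.00737) were called higher. The summed 5 fibroblast markers were at 2.56 to 5.36 CPM in untreated and 8.18 to 20.3 CPM in treated NS1 libraries, and at 2.63 to 8.14 and 2.68 to 6.38 CPM in WT. Of 4 endothelial markers PECAM1 alone was tested, with 1 to 47 counts per library, and CDH5 had at most 25 counts. Whether cells of these types had a part in the results was not tested.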

How the data were processed

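Poly(A) RNA of 12 T24 libraries was made into sequencing libraries with a NEBNext Ultra II kit, per the labels' protocols. Per the submitters' processing notes, reads were processed with STAR 2.7.3a and featureCounts 1.6.4 and with the build hg38. Annotation and strand setting are not given in the sources used here, so reads of overlapping genes cannot be told apart. The authors deposited raw counts of reads per gene for 60603 genes, of which 26519 had no count in any library.

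The analysis used edgeR 4.0.16 (R 4.3.3). A filterByExpr step on the 4 groups left 17775 genes, TMM gave the scaling, and all 12 libraries entered a single quasi-likelihood model with 6 blocks (replicate number within line) and an inducer term for each line (8 coefficients, 4 residual degrees of freedom). The interaction is the difference of the inducer terms. Calls are two-sided, at 0.05 after Benjamini-Hochberg adjustment across the whole table. The standard error is the log2 fold change divided by the square root of F. Pair differences use log2 CPM with a prior count of 2. A group was at the floor for a gene where each of its libraries had at most 3 counts. Replicate 1 stands apart, so list counts were also made without it. Untreated and treated libraries of the same number correlated in their deviations from the group means. The values were 0.713, 0.386 and 0.384 in NS1 and 0.752, 0.385 and 0.256 in WT. Libraries of different numbers were not compared in this way, so the values cannot show that the numbers pair the libraries. The pairing follows the labels' replicate numbers. The most similar replicates still differed beyond sampling noise (chi-square per degree of freedom 3.03, genes with 20 or more summed counts), so none was counted as a repeat deposit.

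The 22 gene lists and the members were chosen with earlier results of these data known, so list counts are descriptions. The text names the 10 highest and 10 lowest interactions among called genes with a mean of at least 1 CPM and no overlap of the pair differences, up to 4 called members per list by adjusted p, BMF, FILIP1L, FABP4, ZWINT and the RAS to ERK genes. BMF, FILIP1L, FABP4 and ZWINT were taken because an earlier fit of these data without blocks had called them. Some genes the rule covers are not reported here, though list counts include them. List members beyond these were named after their values were seen. Positions are from GENCODE 29 on GRCh38, given only where the identifier version matched. Promoter sequences are from RefSeq (GRCh38.p14). The scripts were tested on simulated data. DESeq2 1.42.0, limma 3.58.1 (voom), other scalings, filters and blocks, and leaving out libraries were tried as alternatives.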

Additional observations from a re-analysis of the deposited data

Results flagged for a closer look

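The responses of the 2 lines to the inducer differed by the test of the difference itself in 2495 of 17775 genes (14%). Read against that share, members called were 33 of 34 in the DNA replication list, 32 of 32 in mitosis, 32 of 36 interferon-stimulated genes, 13 of 20 repair genes, 14 of 24 in ribosome biogenesis, 5 of 9 ERK feedback inhibitors, 13 of 24 in G1/S control, 8 of 15 in MHC class I and 8 of 15 in adhesion. They were 9 of 18 receptor tyrosine kinases and adaptors, 9 of 18 cytokines, 8 of 16 NRF2 targets and 8 of 16 matrix protease genes. Of EGF family ligands 3 of 6 were called, of aryl hydrocarbon receptor targets 2 of 4 and of lysosome genes 13 of 27. ETS, AP-1 and immediate-early transcripts had 7 of 15 called and the BCL2 family 6 of 14. The counts were 6 of 17 for ATF4 targets and 4 of 14 in the YAP-TEAD list. The 2 of 21 cholesterol genes (9.52%) and 1 of 18 glycolysis genes (5.56%) lie below the share of all genes. Single outlying libraries were not tested for within the groups of 3.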

How the results depend on the processing

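All 2495 genes called in the interaction kept their sign in each of the 17 alternatives in which they were tested, and 390 of them (224 higher, 166 lower) were called in all 9 leave-out fits. The interaction called 1494 genes with DESeq2, 634 with one replicate block per number in place of one per line and number, and 4 with no replicate block; 1490, 634 and 4 of these were among the 2495. The NS1 effect called 2978, 2421 and 1093 genes in the same order. The WT effect called 4 genes with no filter on low counts. Leaving out 1 pair of libraries or 1 replicate number gave 417 to 4281 calls in the interaction, 1822 to 6034 in NS1 and 0 to 467 in WT. Those fits hold fewer libraries. The lowest interaction count was without replicate 1 of both lines and the highest without WT replicate 3. KRT18 ran from -0.14 to 0.11 over the leave-out fits, and its sign turned with library totals (-0.04), without replicate 3 (-0.14), without NS1 replicate 2 (-0.02), without NS1 replicate 3 (-0.04) and without WT replicate 3 (-0.09); the cause was not tested. Depth limits COL4A4, BCL2A1, MMP3 and CXCL10, which are near the floor of 3 counts in some libraries. It also limits other named genes: untreated NS1 replicate 1 held 0.185 CPM of MGP and 0.0617 CPM of PECAM1. Untreated WT replicate 3 held 0 CPM of SLC4A4. Treated WT replicate 3 held 0.0901, 0.18 and 0 CPM of TGFB2-AS1, DIO2 and ALDH3A1. COL17A1 was at 0.175 and 0.166 CPM in treated NS1 replicates 2 and 3.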
